A study of Homo sapiens with 2 samples.

Results

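The late neutrophil granule and calprotectin genes described here are the 10 symbols *S100A8*, *S100A9*, *S100A12*, *LTF*, *CAMP*, *LCN2*, *MMP9*, *MMP8*, *CSTA* and *CST7*. All 10 were found among the 32738 genes of the count table. They were read in 7550 cells, out of 10836 barcodes. A cell had to be called for 1 hashtag and hold no more than 36000 unique molecular identifiers (UMIs), no more than 6000 genes and a mitochondrial share of 18% or less. Only 4 of the 10 genes, the calprotectin genes *S100A8* and *S100A9* and the cystatin genes *CSTA* and *CST7*, were present at more than trace level in the cells with the most azurophil granule RNA. In those 872 cells *LTF* and *MMP8* had no UMI, and *S100A12*, *CAMP* and *LCN2* had 5, 6 and 3 UMIs.

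Neutrophils make their granules in a fixed order. Promyelocytes fill azurophil granules with myeloperoxidase, the serine proteases elastase and proteinase 3, and azurocidin, their homolog without protease activity. Myelocytes and metamyelocytes then make specific granules (lactoferrin, cathelicidin, lipocalin 2). Band cells make gelatinase granules, and segmented cells acquire secretory vesicles and the receptors of mature neutrophils. Calprotectin, the S100A8/S100A9 heterodimer, binds calcium and zinc and fills the cytosol of neutrophils and monocytes, and C/EBPε is the transcription factor that specific granule genes need.

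The cells came from the iPS11 line of induced pluripotent stem cells, so that every group below shares 1 genetic background. CD34+ cells made from this line were kept for 5 days in medium for the endothelial-to-hematopoietic transition (EHT) on plates that were uncoated or coated with VCAM1 (an adhesion molecule), DLL4 (a notch ligand) or DLL4+VCAM1. The nonadherent cells of 3 wells were pooled for each coating and marked with 1 of 4 hashtag antibodies, and all 4 pools were captured together as 1 library of 3′ UMI counts. The labels do not tie a hashtag to a coating, so hashtags are given by number (0252, 0253, 0254 and 0255), and there are no replicates, hence no test and no p-value. Intervals are exact, at the 95% level, and cover counting error only.

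*S100A9*, *S100A12* and *S100A8* lie next to each other on chromosome 1 (hg19), at chr1:153330330-153333499 on the plus strand, chr1:153346187-153348097 on the minus strand and chr1:153362508-153363549 on the minus strand, with 12687 and 14410 bases between neighbors. *LTF* is on chromosome 3 (chr3:46477136-46526724, minus strand). The 300 bases around the start that RefSeq gives for each of these 4 genes are shown, 250 before and 50 after it. For *S100A8* that start lies upstream of the gene interval given above, and the window does not reach the interval. The genes were chosen because 2 of the 3 neighboring S100 genes were abundant and the one between them was not. *LTF* stands for the specific granule genes. Capitals mark matches to TTNNGNAA, a form of the site bound by C/EBP factors, searched on both strands. Sequences are from RefSeq (GRCh38.p14), at chr1:153357604-153357903 (plus strand), chr1:153375572-153375871 (minus), chr1:153391139-153391438 (minus) and chr3:46485185-46485484 (minus).
S100A9 promoter: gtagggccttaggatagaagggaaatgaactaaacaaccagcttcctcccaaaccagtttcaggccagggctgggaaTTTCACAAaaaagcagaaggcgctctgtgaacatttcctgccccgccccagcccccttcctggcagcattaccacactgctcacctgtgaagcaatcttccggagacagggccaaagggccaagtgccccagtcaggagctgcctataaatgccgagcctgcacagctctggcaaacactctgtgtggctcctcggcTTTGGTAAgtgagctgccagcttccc
S100A12 promoter: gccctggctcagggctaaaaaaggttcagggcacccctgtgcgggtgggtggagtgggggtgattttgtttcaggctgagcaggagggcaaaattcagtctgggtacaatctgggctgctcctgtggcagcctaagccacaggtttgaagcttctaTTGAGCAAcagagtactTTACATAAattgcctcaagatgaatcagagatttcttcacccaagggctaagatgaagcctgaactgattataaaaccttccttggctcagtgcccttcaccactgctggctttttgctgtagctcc
S100A8 promoter: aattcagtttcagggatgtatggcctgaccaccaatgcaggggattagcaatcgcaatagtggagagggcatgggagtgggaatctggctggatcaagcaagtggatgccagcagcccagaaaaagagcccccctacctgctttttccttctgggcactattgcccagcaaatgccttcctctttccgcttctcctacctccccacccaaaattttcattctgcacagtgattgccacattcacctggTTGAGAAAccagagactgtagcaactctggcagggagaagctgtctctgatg
LTF promoter: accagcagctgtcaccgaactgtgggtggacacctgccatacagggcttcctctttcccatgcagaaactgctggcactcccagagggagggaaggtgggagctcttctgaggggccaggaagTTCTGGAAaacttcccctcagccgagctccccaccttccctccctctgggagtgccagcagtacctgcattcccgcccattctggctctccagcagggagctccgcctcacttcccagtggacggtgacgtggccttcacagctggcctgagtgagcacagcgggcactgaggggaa
*S100A9* and *S100A12* had 2 matches each and *S100A8* and *LTF* 1 each. Of all 35116 promoters of this length, 36.8% held at least 1. Of the other members with a promoter in the same set, *LCN2* had 1 match, *MMP8* 4 and *CAMP* 0. These matches are letters in a window and no evidence of binding.

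Cells were divided by UMIs of lineage genes other than the 10 members. Azurophil-high cells had at least 20 UMIs of *ELANE*, *PRTN3* and *AZU1* in sum and under 5 of *C1QA*, *C1QB* and *C1QC* (872 cells, 11.5% of those kept). C1Q-positive cells, with at least 5 UMIs of the 3 complement genes that mark macrophages and under 20 of *ELANE*, *PRTN3* and *AZU1*, numbered 810. A further 33 cells passed both limits. From the remainder, 120 cells were set apart by eosinophil genes (at least 20 UMIs of *EPX*, *PRG2* and *CLC*), 875 by erythroid genes (at least 5 UMIs in sum) and 55 by collagen genes (at least 20 UMIs of *COL1A1*, *COL1A2* and *COL3A1*), which left 4785. Median depth was 18302.5 UMIs in azurophil-high, 13536.5 in C1Q-positive and 19474 in erythroid cells, so shares of cells were also computed after thinning each cell to 5000 UMIs.

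The azurophil-high cells carried azurophil granule RNA beyond the genes that defined them. *MPO*, which did not define them, was detected in 99.8%, at 7831 CPM (UMIs per 1000000 UMIs of the group) against 118 in C1Q-positive cells. The eosinophil and neutrophil ribonuclease *RNASE2*, counted here with the eosinophil genes, was detected in 98.9%, at 486 against 184 CPM. Of the 694 C1Q-positive cells without *MMP9*, 58.5% had a UMI of *MPO* and 64.4% of *RNASE2*. All 10 azurophil granule genes of the list that did not set the groups were at least 2-fold higher than in C1Q-positive cells. The granulocyte colony-stimulating factor receptor *CSF3R* was detected in 80.7% and *CEBPE* in 54.2% (123.95 CPM against 2.56 in C1Q-positive cells). Of other macrophage and monocyte markers, *CD14* had 7 UMIs, *MRC1* 1 and *CD163* 1 in all 872 cells. Others had more, with 623 UMIs of *VCAN*, 570 of *CD68*, 510 of *APOE*, 391 of *SPP1*, 205 of *CLEC7A* and 202 of *FCN1*. *CSF1R*, the macrophage colony-stimulating factor receptor, was detected in 55.4% of azurophil-high cells. The monocyte genes *VCAN* and *FCN1* were within 2-fold of C1Q-positive cells. Of 10 monocyte genes 7 were 2-fold lower than in C1Q-positive cells and 1 (*LYZ*) was higher, and of the macrophage genes other than the 3 C1Q genes, the 6 compared were all lower. Eosinophil genes were present too, since 108 azurophil-high cells (12.4%) had at least 20 UMIs of *EPX*, *PRG2* and *CLC*. Some results are therefore also given without these cells. In the other 764 azurophil-high cells *CEBPE* was at 79.1 CPM, with a UMI in 49.0%, and in the 108 at 412 CPM and 91.7%. The C1Q-positive cells had *CSF1R* in 91.7% and *CLEC7A* in 81.0%.

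Calprotectin RNA was widespread in azurophil-high cells and uneven among them. *S100A9* had 16360 UMIs there, 1013 CPM (998 to 1029), with a UMI in 90.3% of cells, against 270 CPM (261 to 280) and 31.4% in C1Q-positive cells, a ratio of 3.75 (3.61 to 3.89). *S100A8* had 5458 UMIs, 338 CPM (329 to 347) and a UMI in 57.8%, against 77.4 CPM (72.5 to 82.5) and 10.2%, a ratio of 4.37 (4.08 to 4.69). After thinning, the shares were 75.1 and 22.9% for *S100A9* and 41.0 and 7.72% for *S100A8*, so the order of the groups was the same at equal depth. Azurophil-high cells, 11.4% of all kept UMIs, held 60.3% of the *S100A9* UMIs and 68.8% of the *S100A8* UMIs. The ratio of *S100A8* depended on where the groups were drawn, from 3.13 with an azurophil limit of 50 UMIs to 11.2 with a limit of 5, and was 7.51 without hashtag 0253. That of *S100A9* was 6.25 with a C1Q limit of 20 UMIs and 2.43 with a mitochondrial limit of 10%. Without the eosinophil-marked cells the ratios were 4.99 for *S100A8* and 4.25 for *S100A9*.

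Erythroid cells served as a comparison group that should lack calprotectin. They are no measure of free RNA for every member, since *LCN2* and *CST7* were higher in them than in C1Q-positive cells. *S100A9* was at 3.80 CPM in them, with a UMI in 6.51% of cells at a median depth of 19474, and *S100A8* at 1.21 CPM and 2.51%. Per 1000 UMIs of *PRTN3*, erythroid cells had 124 UMIs of *S100A9* (95.2 to 160) and 39.6 of *S100A8* (24.6 to 60.5), and azurophil-high cells had 116 and 38.6. The intervals of both genes thus held the azurophil-high value. Other genes did not keep this ratio, with 1122 against 106 UMIs of *LYZ*, 1822 against 893 of *MPO*, 203 against 94.0 of *AZU1* and 32.4 (19.04 to 51.6) against 18.5 of *CSTA* per 1000 of *PRTN3* in erythroid and azurophil-high cells. In C1Q-positive cells *S100A9* and *S100A8* were at 4109 and 1176. The part of free RNA in these values was not tested. Shares of cells with a UMI of *S100A9* were also high in collagen cells (29.1%, or 16.4% after thinning) and in the cells of no named group (24.5%), at 24.9 and 63.0 CPM. The share of C1Q-positive cells with *S100A9* was thus near that of collagen cells, while its CPM was above it.

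In C1Q-positive cells calprotectin was confined to a minority. The median cell had no UMI of *S100A8* or *S100A9*, 67.8% had neither, and 51 cells (6.30%) had at least 20 of both in sum. The 81 cells highest in *S100A8* held 99.8% of its UMIs, and a single cell had 202 *S100A8* and 338 *S100A9* UMIs. Without the cell highest in each gene, C1Q-positive cells were at 60.8 CPM of *S100A8* and 243 of *S100A9*, and the ratios were 5.56 and 4.17. C1Q-positive cells with 20 or more calprotectin UMIs had 1588 CPM of *LYZ* (lysozyme), 118 of *FCN1* (a monocyte lectin) and 248 of *HP* (haptoglobin), against 65.5, 0.87 and 3.35 in those with none. Azurophil granule genes moved with calprotectin as well, with 306 against 38.1 CPM of *PRTN3*, 590 against 67.0 of *MPO*, 91.9 against 7.82 of *AZU1* and 87.3 against 2.73 of *MS4A3*, and their part was not tested. The 33 cells that passed both limits were highest of all groups in calprotectin, with 904.5 CPM of *S100A8* (833 to 980) and 2418 of *S100A9* (2300 to 2540), and had *VCAN*, another monocyte gene, in 81.8% of cells. Scrublet called 1 of these 33 a doublet.

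*S100A12*, which encodes another calcium-binding S100 protein of neutrophils and monocytes and lies between the calprotectin genes, was at trace level. It had 31 UMIs in all kept cells, of which 5 were in azurophil-high cells (0.31 CPM, 0.101 to 0.723) and 15 in C1Q-positive cells (1.24 CPM, 0.693 to 2.04), a ratio of 0.25 (0.0711 to 0.724). No cell had more than 3 UMIs of it. Azurophil-high cells with 20 or more calprotectin UMIs had 0.72 CPM. In C1Q-positive cells with as many, *S100A12* reached 12.8 CPM.

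Both cystatin genes, inhibitors of cysteine proteases, were higher in azurophil-high cells. *CSTA* (stefin A, a cytosolic inhibitor of cathepsins) had 2614 UMIs there, 162 CPM (156 to 168), with a UMI in 79.1% of cells. C1Q-positive cells had 27.8 CPM (24.9 to 30.9) and 19.4%, a ratio of 5.83 (5.21 to 6.56), and erythroid cells had 0.992 CPM. *CST7* (cystatin F, which inhibits lysosomal cathepsins) was the member with the largest ratio. It had 1855 UMIs, 115 CPM (110 to 120) and a UMI in 45.4% of azurophil-high cells, against 19 UMIs, 1.57 CPM (0.945 to 2.45) and 2.10% in C1Q-positive cells, a ratio of 73.2 (46.8 to 122). Without the eosinophil-marked cells the ratio was 52.9 (33.7 to 88.1). Cells of the eosinophil group, which had few UMIs of *ELANE*, *PRTN3* and *AZU1*, had 47.7 CPM (39.1 to 57.6) of *CST7*, with a UMI in 40.8%, and 29.0 CPM of *CSTA*. Erythroid cells had 3.47 CPM of *CST7*, and 113 UMIs of it per 1000 of *PRTN3* (85.9 to 147) against 13.1 in azurophil-high cells. *CST3* and *CSTB*, the other cystatin genes followed, were at 231 against 1843 CPM and at 261 against 337 CPM in azurophil-high and C1Q-positive cells.

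RNA of the specific granule genes *LTF*, *CAMP* and *LCN2* was at or near 0 in azurophil-high cells. *HP* and *CHI3L1*, also listed here as specific granule genes, were not, at 69.5 and 48.3 CPM. *LTF* (lactoferrin) had 0 UMIs in 872 cells, where 3 counts would be 0.344% of cells with a UMI and 0.186 CPM and the exact upper limits are 0.422% and 0.2285 CPM, and 3 UMIs in all kept cells, none in a C1Q-positive cell. *CAMP* (cathelicidin) had 6 UMIs in 6 azurophil-high cells (0.372 CPM, 0.136 to 0.809) and 9 in C1Q-positive cells, and its share of 0.688% of azurophil-high cells, 0.231% after thinning, compares with 0.114% of erythroid cells in both cases. *LCN2* (lipocalin 2, which binds iron-loaded siderophores) had 3 and 2 UMIs. In sum, 9 of 872 azurophil-high cells (1.03%, 0.473 to 1.95%) had a UMI of *LTF*, *CAMP* or *LCN2*, against 1.36% of C1Q-positive cells (0.680 to 2.42%) and 1.82% of collagen cells. No azurophil-high cell had a UMI of more than 1 of *LTF*, *CAMP*, *LCN2* and *MMP8*. After thinning, 3 of 865 cells (0.347%) had a UMI, and the share in azurophil-high cells was not above the 0.623% of C1Q-positive cells at that depth.

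*CAMP* and *LCN2* were more frequent in other cells. *CAMP* was detected in 8 of 120 cells of the eosinophil group (6.67%, 2.92 to 12.7%), 3.56 CPM (1.54 to 7.02). *LCN2* had 131 of its 222 UMIs (59.0%) in erythroid cells, where 106 of 875 cells (12.1%, 10.0 to 14.5%) had a UMI and the level was 7.22 CPM (6.04 to 8.57). After thinning, 2.97% of erythroid cells and 0.116% of azurophil-high cells had *LCN2*. No erythroid cell had more than 3 UMIs of it. Erythroid cells with and without *LCN2* had 51.4 and 56.5 CPM of *MPO*, 26.4 and 31.3 of *PRTN3* and 2.98 and 3.93 of *S100A9*. *CSF3R* was at 15.3 and 11.8 CPM. *S100A8* was at 2.55 (0.936 to 5.55) and 1.01 CPM (0.579 to 1.65), from 6 and 16 UMIs, with overlapping intervals. The part of granulocyte RNA was not tested. Per 1000 *PRTN3* UMIs, *LCN2* was at 236 in erythroid cells (193 to 286) and at 0.0212 in azurophil-high cells.

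*MMP9* was lower in azurophil-high cells than in C1Q-positive cells, and *MMP8* was not detected in either. *MMP9* (gelatinase B) had 17 UMIs in 872 azurophil-high cells, 1.053 CPM (0.613 to 1.69), never more than 1 in a cell. C1Q-positive cells had 408 UMIs, 33.7 CPM (30.5 to 37.1), with a UMI in 14.3%, so that the ratio was 0.0312 (0.0180 to 0.0507). The 24 C1Q-positive cells with 5 or more *MMP9* UMIs had 373 CPM of *CD14*, the lipopolysaccharide co-receptor, with a UMI in 66.7%, against 53.8 CPM and 21.0% in those without *MMP9*. *MMP8* (neutrophil collagenase) had 1 UMI in all 7550 cells, in a cell of no named group, and with 0 UMIs in azurophil-high cells its limits there are those of *LTF*. Such limits bound the cells with a UMI and not the cells that express a gene.

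**Figure D1:**
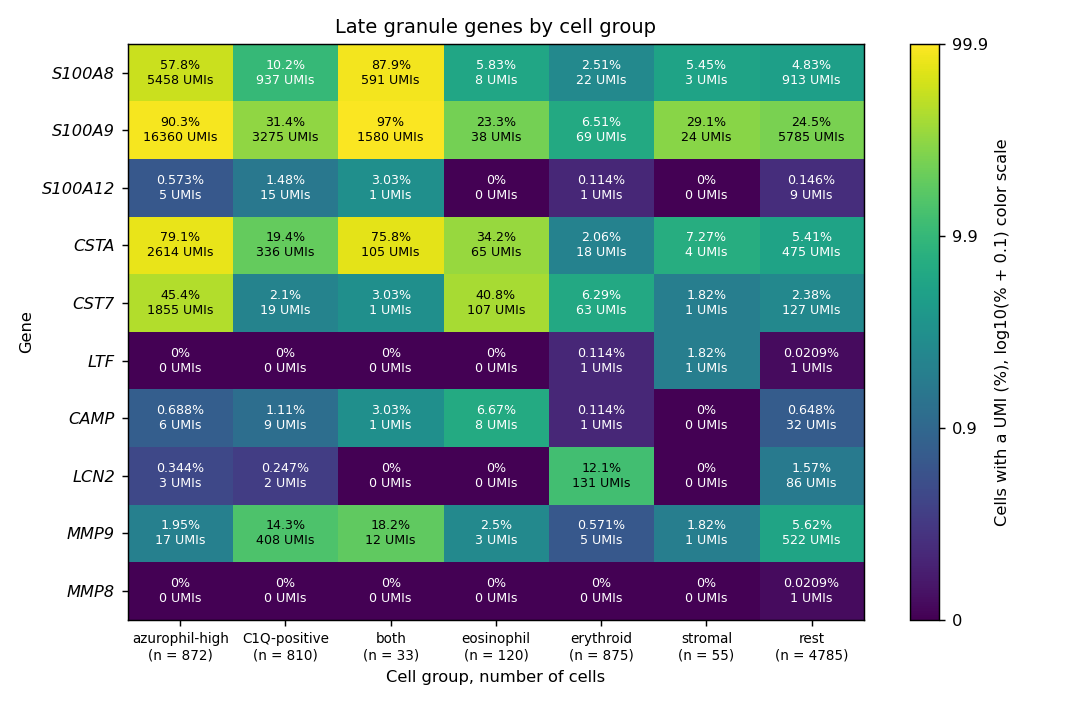
Share of cells with at least 1 UMI (color, log scale; number in each tile) and summed UMIs of the 10 genes (rows) in the 7 cell groups (columns, with n cells). *S100A8*, *S100A9*, *CSTA* and *CST7* filled the azurophil-high column at 45.4 to 90.3% of cells, *LCN2* peaked in the erythroid column at 12.1%, *MMP9* was at 14.3% in the C1Q-positive column, and the *LTF* and *MMP8* rows were nearly empty.

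By count, 4 of the 10 members (*S100A8*, *S100A9*, *CSTA* and *CST7*) were at least 2-fold higher in azurophil-high than in C1Q-positive cells, 2 (*S100A12* and *MMP9*) were at least 2-fold lower, and 4 had under 20 UMIs in both groups together and were not compared. Of all 13362 genes with 20 or more UMIs, 10.2% were 2-fold higher and 13.0% 2-fold lower. The median log2 ratio was 2.02 over the 6 members compared and 0.13 over all genes.

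Fewer genes of each later class than of the azurophil class reached 10 CPM, with no steady fall among the later classes. The share of all genes at that level was not computed, so these counts compare the lists only with each other. Of 10 azurophil granule genes that did not set the groups, 10 had at least 10 CPM in azurophil-high cells. Of 12 specific granule genes found in the table (*CD177* and *CD24* were not found under those symbols), 2 had, and 5 had at most 3 UMIs. The 2 exceptions were *CHI3L1*, with a UMI in 32.5% of cells, and *HP*, in 38.4%. *HP* was at 69.5 CPM against 28.4 in C1Q-positive cells, and *CHI3L1* at 48.3 against 68.5. *OLFM4*, *PGLYRP1*, *TCN1*, *CEACAM8* and *ARG1*, all specific granule or neutrophil proteins, had 2, 5, 5, 1 and 3 UMIs. Of 10 gelatinase granule and vesicle genes, 3 had at least 10 CPM in azurophil-high cells. These were *PADI4*, *SLC11A1* (21.9 CPM) and *FCN1* (12.5 CPM). *PADI4*, the peptidylarginine deiminase of neutrophils, was counted in this list but is an enzyme of nucleus and cytosol, not of granules. Only 6 of the 10 had enough UMIs to compare. *PADI4* was 2-fold higher, at 26.4 against 1.49 CPM, and no other gene of the list was. *SLC11A1* and *FCN1* were within 2-fold. Lower were 3, *MMP9*, the integrin *ITGAM* (3.84 against 11.6 CPM) and the peptidase *MME* (0.248 against 1.40 CPM). *PADI4* was also at 10.4 CPM in erythroid cells.

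Most receptors of mature neutrophils were sparse. The Fc receptor *FCGR3B* (CD16b) had 2 UMIs in azurophil-high cells, in 1 cell, and the interleukin 8 receptor *CXCR1* had 4. *CXCR2*, the second interleukin 8 receptor, was detected in 9.52% of cells (5.82 against 0.33 CPM) and the formyl peptide receptor *FPR2* in 15.0% (10.0 against 1.24 CPM), while *FPR1* was at 3.22 against 34.7 CPM. With *CSF3R*, 3 of the 8 receptor genes compared were 2-fold higher, and *FPR1* and *LILRB3* (0.557 against 1.32 CPM) were lower. Of all 10 receptor genes, 2 had at least 10 CPM in azurophil-high cells, *CSF3R* and *FPR2*. None of 6 cell division genes passed 2-fold in either direction, and *MKI67* and *TOP2A* were detected in 83.9 and 85.2% of azurophil-high cells. Of 8 granulocyte transcription factors, *CEBPE*, *GFI1* (25.2 against 1.57 CPM) and *MYB* (90.3 against 8.42 CPM) were 2-fold higher and none was lower. In the remaining lists, 5 of 5 eosinophil genes were 2-fold higher and 5 of 5 stromal genes were lower. Of all genes compared, 10.2% were higher and 13.0% lower. The 108 eosinophil-marked cells held 6082 of 6359 *EPX* UMIs and 7715 of 7803 *CLC* UMIs. In the other 764 cells *CLC* was within 2-fold of C1Q-positive cells, at 6.30 against 3.96 CPM. *EPX* was at 19.8 against 5.12 there and *PRG2* at 24.9 against 1.90. Of 4 erythroid genes compared 1 was higher and none lower. Of 8 S100 genes, *S100A8*, *S100A9* and *S100P* (71.2 against 11.1 CPM) were higher, and *S100A4*, *S100A6*, *S100A10* and *S100A12* were lower. Of 4 cystatin genes, *CSTA* and *CST7* were higher and *CST3* was lower.

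**Figure D2:**
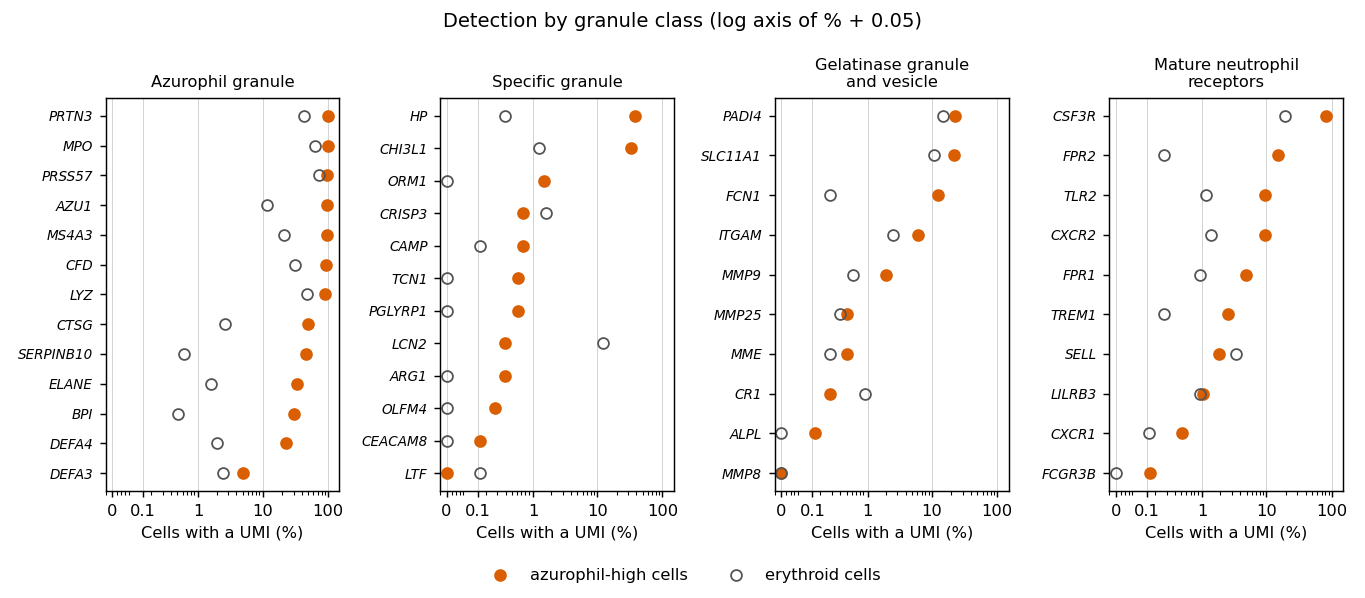
Share of azurophil-high cells (filled) and of erythroid cells (open) with a UMI of each gene (log axis), for the 4 classes in the order neutrophils make them. *PRTN3*, *AZU1* and *ELANE* set the group. *PADI4* is shown with the gelatinase granule and vesicle list but is no granule protein. Of the other azurophil granule genes *MPO* was highest at 99.8% of azurophil-high cells and *DEFA3* lowest at 4.93%, and in the specific granule class only *HP* and *CHI3L1* exceeded 2% of azurophil-high cells.

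The 4 abundant members did not mark the same cells to the same degree. Of the 872 azurophil-high cells, 225 (25.8%) had a UMI of all 4 and 24 (2.75%) of none, against 1 and 486 of 810 C1Q-positive cells. *S100A9* ranged from 0 to 208 UMIs per cell with a median of 10, *S100A8* from 0 to 195 with a median of 1, *CSTA* from 0 to 20 with a median of 2 and *CST7* from 0 to 27 with a median of 0. The 87 cells highest in a gene held 61.7% of the UMIs of *S100A8*, 53.2% of *CST7*, 38.9% of *S100A9* and 32.8% of *CSTA*. *S100A8* was thus the most concentrated and *CSTA* the most even.

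Grouping azurophil-high cells by their summed *S100A8* and *S100A9* UMIs (0, 1 to 4, 5 to 19, and 20 or more, with 80, 196, 258 and 338 cells) gave an order in which other genes followed. *CSTA* was at 55.0, 73.6, 135 and 284 CPM, *LYZ* at 54.4, 185, 598 and 2053, and *DEFA4*, a defensin of azurophil granules, at 0.567, 24.0, 94.8 and 328. *HP* was at 3.97, 8.15, 26.2 and 173 CPM and *CHI3L1* at 0, 7.66, 35.4 and 105, the latter with a UMI in 58.9% of the last group. The stem and progenitor marker *CD34* went the other way, at 82.2, 44.5, 22.1 and 10.49 CPM. *CEBPE* did so too, at 232, 170, 133 and 47.7 CPM, as did *EPX* (eosinophil peroxidase), at 975, 647, 381 and 35.1. *CST7* had no such order over all azurophil-high cells, at 83.9, 98.0, 161 and 97.5 CPM. *LTF* and *MMP8* had no UMI in any of the 4 groups, *CAMP* reached 0.90 CPM in the last, and *MKI67* was at 179 CPM in the first and 276 in the last.

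Depth and monocyte genes also moved with this order. Median depth was 21683.5, 20846, 17973.5 and 15839.5 UMIs, so that calprotectin was highest in the shallower cells. Among monocyte genes, *VCAN* was at 10.2 and 90.1 CPM, *FCN1* at 0.567 and 35.3 and *CSF1R* at 18.1 and 113 in the first and last groups, whereas *CD14* was at 0.567 and 1.08. Their part in the order was not tested. Without the 108 eosinophil-marked cells, *CEBPE* was at 162, 90.8, 92.1 and 46.3 CPM, *CD34* at 102, 38.9, 23.4 and 10.6 and *LYZ* at 55.3, 220, 658 and 2070. *CST7* then was at 20.02, 44.9, 116 and 91.4. The lack of order in *CST7* thus did not hold without these cells, although its last value was below the one before.

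**Figure D3:**
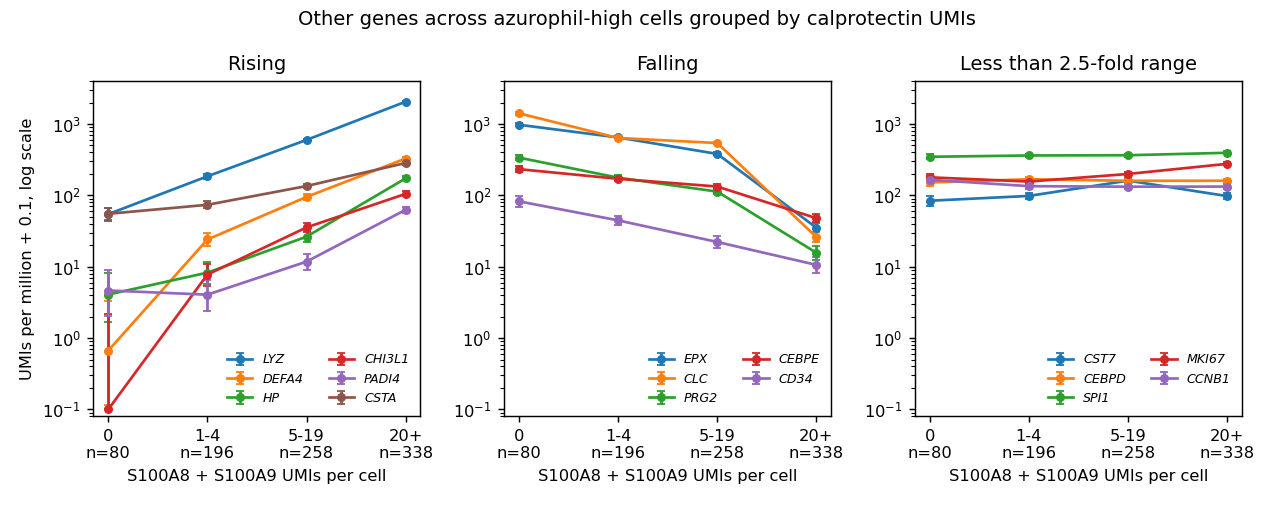
CPM of 16 other genes (log axis, CPM + 0.1, bars are exact Poisson intervals) in azurophil-high cells grouped by *S100A8* + *S100A9* UMIs, with n cells per group. *LYZ*, *DEFA4*, *HP*, *CHI3L1*, *PADI4* and *CSTA* were higher with more calprotectin, eosinophil genes, *CEBPE* and *CD34* lower, and *CST7* stayed between 83.9 and 161 CPM. Without eosinophil-marked cells, which are included here, *CST7* was at 20.02, 44.9, 116 and 91.4 CPM.

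Cells with much *CST7* differed from cells with much calprotectin. Azurophil-high cells with 0, 1 to 4 and 5 or more *CST7* UMIs (476, 243 and 153 cells) had 54.2, 144 and 324 CPM of *CEBPE*, 48.0, 357 and 1614 of *EPX*, 9.06, 39.1 and 135 of *BPI* (a bactericidal azurophil granule protein) and 35.4, 212 and 474 of *ELANE*. *LYZ* was at 1333, 547 and 221 CPM, *HP* at 100.0, 42.1 and 11.9 and *CSF1R* at 91.9, 47.1 and 21.5. *S100A8* was similar, at 336, 366.5 and 298 CPM, and *S100A9* was at 1115, 957 and 764. This grouping by *CST7* was not repeated without the eosinophil-marked cells. In the 108 eosinophil-marked azurophil-high cells *CST7* was at 320 CPM (297 to 345) with a UMI in 87.0%, and in the other 764 at 83.0 (78.3 to 87.9) and 39.5%. The calprotectin genes had the opposite pattern, with 28.1 CPM of *S100A8* and 144 of *S100A9* in the eosinophil-marked cells and 386 and 1149 in the others. *CSTA* was close in both, at 138 (123 to 155) and 166 (159 to 172) CPM.

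Azurophil-high cells were 16.7, 17.9, 5.31 and 3.88% of the cells with hashtags 0252, 0253, 0254 and 0255 (356, 357, 98 and 61 cells). In the order of these hashtags, *S100A8* within them was at 424 (408 to 441), 309 (295 to 322), 334 (309 to 361) and 65.4 (52.0 to 81.2) CPM, with a UMI in 63.2, 59.1, 49.0 and 32.8% of cells. Hashtag 0255 was lowest, with an interval below the others, and the ratio of highest to lowest was 6.49 (5.21 to 8.18). These intervals leave out the spread between cells. Over all azurophil-high cells the variance of *S100A8* UMIs per cell was 35.0 times their mean. The value for 0254 leaned on 1 cell with 195 of 649 UMIs, and was 236 without it. Without the cell highest in *S100A8* in each hashtag, 0252, 0253 and 0255 were at 401, 289 and 52.6.

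The other 3 abundant members were also lowest in hashtag 0255. *S100A9* was at 1031, 1125, 959 and 420 CPM, a ratio of 2.67 (2.45 to 2.93), although its share of cells with a UMI was 92.4, 90.2, 83.7 and 88.5%. *CST7* was at 136, 117, 79.8 and 51.1 CPM, a ratio of 2.67 (2.07 to 3.49), and *CSTA* at 177, 167, 143 and 89.4, a ratio of 1.98 (1.63 to 2.43). Of the 4 members with 200 or more UMIs, 3 thus had a ratio of at least 2, where 2.93% of 7297 genes with as many UMIs had, with a median ratio of 1.25. Hashtag 0255 was lowest for 34.1% of those genes. *LYZ* was at 1089, 906, 843 and 433 CPM in the same cells, and *CEBPE* at 115, 141, 112 and 95.7.

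Cells with 20 or more calprotectin UMIs made up 37.6, 43.7, 37.8 and 18.03% of the azurophil-high cells (in hashtag 0255, 11 of 61, 9.36 to 30.0%), and median depth was 17218, 18467, 18702.5 and 20528 UMIs. Depth was thus highest where calprotectin was lowest, and its part was not tested. Without eosinophil-marked cells, *S100A8* was at 483, 360, 385 and 66.7 CPM, *CSTA* at 178, 177, 147 and 83.5 and *CST7* at 102, 82.5, 48.8 and 44.7. Members with few UMIs showed no order across hashtags at this depth, with 0 to 4 UMIs of *S100A12*, 1 or 2 of *CAMP*, 0 to 3 of *LCN2* and 1 to 8 of *MMP9* per hashtag in azurophil-high cells.

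**Figure D4:**
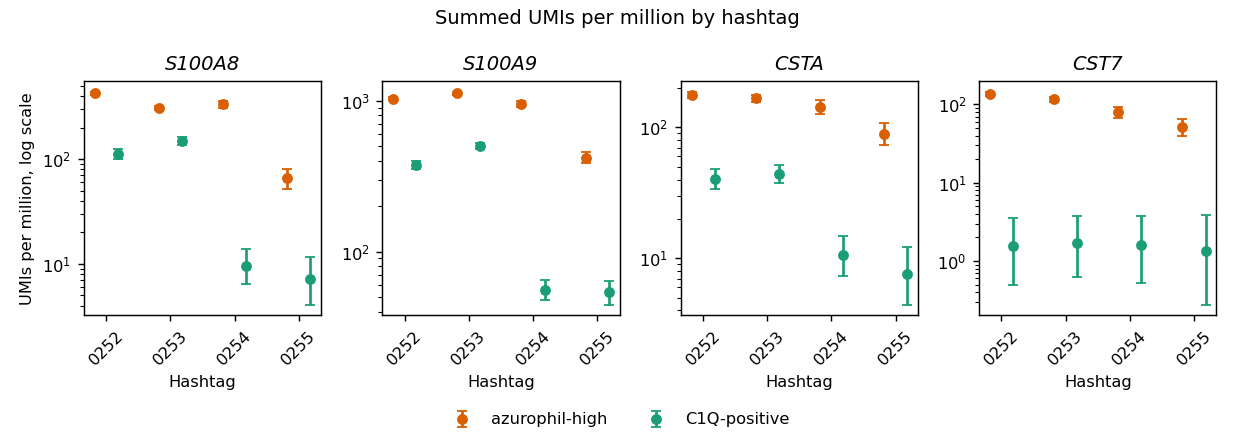
CPM (log axes, which differ in range between panels) of *S100A8*, *S100A9*, *CSTA* and *CST7* by hashtag in azurophil-high cells (356, 357, 98 and 61 cells) and C1Q-positive cells (236, 217, 206 and 151 cells). Bars are exact 95% Poisson intervals for counting error. In azurophil-high cells all 4 genes were lowest in hashtag 0255, and in C1Q-positive cells *S100A8*, *S100A9* and *CSTA* were low in 0254 and 0255.

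In C1Q-positive cells the hashtags differed in another order. *S100A8* was at 112, 150, 9.62 and 7.14 CPM in hashtags 0252 to 0255 and *S100A9* at 375, 503, 55.8 and 53.5. The *S100A8* values came from 365, 526, 30 and 16 UMIs, so the C1Q-positive cell with 202 of them was in 0252 or 0253. Values and ratios by hashtag were not computed without that cell. *CSTA* was at 40.6, 44.03, 10.6 and 7.59 CPM. For these 3 genes hashtag 0254 was thus near 0255 in C1Q-positive cells. In azurophil-high cells it was nearer to 0252 and 0253 than to 0255. Without the cell highest in *S100A8*, however, 0254 was at 236 CPM of it there, against 289 in 0253 and 52.6 in 0255. *CST7* in azurophil-high cells of 0254 (79.8 CPM) was nearer to 0255 (51.1) than to 0253 (117). Without eosinophil-marked cells these *CST7* values were 48.8, 44.7 and 82.5. The ratio of azurophil-high to C1Q-positive cells within a hashtag was 3.78, 2.05, 34.7 and 9.16 for *S100A8*, 2.75, 2.23, 17.2 and 7.85 for *S100A9*, 4.36, 3.79, 13.5 and 11.8 for *CSTA* and 88.5, 68.2, 49.8 and 38.1 for *CST7*. All 16 were above 2, but the interval of the lowest, *S100A8* in hashtag 0253, reached below 2 (1.86 to 2.26). *MMP9* was higher in C1Q-positive cells in every hashtag, at 18.8, 56.3, 23.1 and 34.8 CPM against 0.791, 1.21, 1.55 and 0.798.

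Among 12272 genes with 200 or more UMIs, those whose log2(CPM + 1) followed summed *S100A8* and *S100A9* most closely over 24 profiles (6 cell groups by 4 hashtags, the smallest of 5 cells) were *RNASE3* (the eosinophil cationic protein, Pearson r = 0.93), *HP* (0.93), *LYZ* (0.93), *RETN* (resistin, 0.91) and *KIAA0930* (0.91). *RNASE3* was at 66.0 CPM in azurophil-high cells, 15.9 in C1Q-positive and 5.79 in the eosinophil group. The sum of *LTF*, *CAMP* and *LCN2* was mostly *LCN2* (222 of 282 UMIs, 131 of them in erythroid cells), and the genes that followed it were *APOBEC3F* (0.84), *OSBP2* (0.81), *MED27* (0.79), *AF127936.3* (0.79) and *GMPR* (0.77). *GMPR* (guanosine monophosphate reductase) was at 185 CPM in erythroid and 9.04 in azurophil-high cells, and *OSBP2* at 14.1 and 0.619. The profiles share 1 library, and these correlations are descriptions.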

How the data were processed

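Nonadherent cells from 5 days of EHT were captured as 1 library, marked with 4 hashtags. With Cell Ranger 6.0.1 and hg19 as the genome, the authors produced and deposited unnormalized UMI counts of 32738 genes in 10836 barcodes, with a hashtag call for each (8488 for 1 hashtag). The paper's limits on UMIs, genes and mitochondrial share were applied, which left 7550 cells with 142110950 UMIs and a median of 18318.5 per cell. Hashtag doublets and negatives were left out by the deposited calls, and Scrublet (expected rate 6%) was used in an alternative. It called 98 of 8488 cells (1.15%).

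Groups were set by summed UMIs of lineage genes as given in the report, with limits chosen, like the members and gene lists, with earlier results of these data known. UMIs were summed over the cells of a group and scaled to CPM of all gene UMIs, with exact Poisson intervals. Shares carry exact Clopper-Pearson intervals and ratios exact conditional binomial intervals, at the 95% level. A gene was compared with 20 or more UMIs in both groups together (200 within azurophil-high cells for hashtags) and counted as higher or lower from 2-fold. With 1 library and no replicates no test was made, and counting intervals miss the spread between cells and between cultures. A count of 0 was given the limit of 3 counts. Thinning drew 5000 UMIs per cell with a fixed seed and left out 7 azurophil-high and 7 C1Q-positive cells. Genes were named as the 10 members, the group-defining genes, genes of the lists (azurophil, specific and gelatinase granule, receptor, transcription factor, monocyte, macrophage, eosinophil, erythroid, stromal, cell division, S100 and cystatin) and the 5 genes closest in pattern to calprotectin and to the sum of *LTF*, *CAMP* and *LCN2*. *CD34* was added after its values were seen. Some genes of the lists are not reported here by name. The summing and ratio steps were tested on simulated data.

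Positions are from GENCODE lifted to hg19. Promoters are from RefSeq on GRCh38.p14, where 7 of 10 members were matched by symbol. Python 3.11.15, numpy 2.4.6, scipy 1.17.1, pandas 2.3.3, matplotlib 3.10.9 and scanpy 1.11.5 were used. Alternatives were other limits for both groups, thinning, a mitochondrial limit of 10%, no limit on UMIs or genes, removal of Scrublet doublets, cells over both limits kept, each hashtag left out and a 4-fold limit. Leaving out eosinophil-marked cells was chosen after seeing the data.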

Additional observations from a re-analysis of the deposited data

Results flagged for a closer look

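Barcodes without a single hashtag entered none of the comparisons, yet some carried the same RNA. Of 809 barcodes called negative and within the limits on UMIs, genes and mitochondrial share, 46 (5.69%) were azurophil-high, and they had 419 CPM (373 to 469) of *S100A8* and *S100A9* together, 1 UMI of *LTF*, *CAMP* or *LCN2* and none of *S100A12* or *MMP8*. Of 834 barcodes called doublets, 130 (15.6%) were azurophil-high, with 969 CPM (934 to 1005) of calprotectin, 6 UMIs of the 3 specific granule genes and none of *S100A12* or *MMP8*. Azurophil-high cells with 1 hashtag had 1351 CPM. These values drew attention because they lie outside the cells reported on and above the limit that a count of 0 allows (4.19 CPM for negatives, 0.997 for doublets).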

How the results depend on the processing

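All 4 members counted were at least 2-fold higher in azurophil-high than in C1Q-positive cells under each alternative at 2-fold, and 3 at 4-fold. No ratio of a member changed direction in any alternative that allowed it to be compared. Within azurophil-high cells, 3 or 4 members had a 2-fold ratio between hashtags under each alternative at that limit, with *CSTA* joining in several, and 1 (*S100A8*) at 4-fold. The share of azurophil-high cells with a UMI of *LTF*, *CAMP* or *LCN2* was 0.347% after thinning, which leaves fewer UMIs to find, and between 0.752 and 1.49% otherwise. Leaving out each hashtag gave 0.775 to 1.36%, and 4 members in each case. Over all genes, shares were computed only in the main setting at 2-fold. They were 10.2% higher than in C1Q-positive cells and 2.93% between hashtags. The member counts under the alternatives and at 4-fold have no such share beside them.

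Sizes of ratios depended on the limits. That of *S100A8*, 4.37, ranged from 3.13 (azurophil limit of 50 UMIs) to 11.2 (limit of 5), and was 9.14 at a C1Q limit of 20 and 7.51 without hashtag 0253. *S100A9*, 3.75, ranged from 2.43 (mitochondrial limit of 10%, which left 266 and 60 cells) to 6.25. *CSTA* ranged from 4.19 to 8.28, *CST7* from 52.9 to 82.6 and *MMP9* from 0.0160 to 0.0512. *S100A12* had enough UMIs to be compared in 5 alternatives, at 0.245 to 0.426. Outside the azurophil limit, the 118 cells with 10 to 19 UMIs of *ELANE*, *PRTN3* and *AZU1* had 692 CPM of *S100A9* and 156 of *S100A8*. The 75 with 20 to 29 had 1022 and 300.4. The causes were not tested. No paired analysis was possible because the 4 hashtags are in 1 library without replicate numbers.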
